A study of Mus musculus with 28 samples.

Results

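Macrophages were followed in mice that over-expressed human APOBEC3B (A3B) through 10 genes that mark these cells. The genes were taken by name out of 35858 gene symbols in one RNA-seq set (set 2, livers and pancreases) and out of 24845 gene rows in another (set 1, livers and lungs). Of the 10, 7 are general macrophage and monocyte markers (C1qa, C1qb, C1qc, Lyz2, Cd68, Adgre1 and Csf1r) and 3 mark tissue-resident populations (Clec4f, Timd4 and Marco). All 10 were measured in every library and all 10 passed the filter on low values in each of the 4 tissue comparisons, so none was lost.

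The A3B transgene is fused to turboGFP and sits in the ColA1 locus behind a tetracycline-responsive operator, and the A3B mice also carry a constitutive CAGs-rtTA3 driver that switches it on in most tissues when doxycycline is eaten. The study put 4-week-old mice on food with 625 ppm doxycycline and took control littermates that lacked either the driver or the transgene. Set 2 holds 6 A3B livers and 2 control livers, and 6 A3B pancreases and 2 control pancreases, all labelled as 10 days on doxycycline. Set 1 holds 3 A3B and 3 control livers and 3 A3B and 3 control lungs. A3B livers 23 and 28 are labelled 14 days, A3B liver 70 and the A3B lungs 10 days, and the controls 15 days. The study's list of mice gives the set 1 controls other times, so their time on doxycycline is uncertain. For set 2 the sources conflict. A figure legend of the study describes the control animals used with livers and pancreases as given no doxycycline. Its methods say that control littermates had doxycycline food, and the labels give 10 days. If the legend holds, doxycycline itself differs between the groups and cannot be told apart from the transgene. The numbers are mouse numbers, and a mouse that gave both tissues has the same number in each. The titles put samples in the control or A3B group, and the genotype labels disagree with some titles. Control pancreases 45 and 168 and control liver 11 are labelled as carrying transgene and driver. A3B pancreases 44 and 137 are labelled as carrying the transgene alone. The livers of mice 44, 45, 137 and 168 carry the genotype label that matches their title, so the 2 labels of each of these mice contradict each other. The other controls carry the transgene alone. In set 1 the transgene was at 705 to 1705 TPM (a transcript level corrected for length and library size) in A3B livers and 90.6 to 281 TPM in A3B lungs, against at most 0.526 TPM in any control, control liver 11 included. The transgene was not analysed here in set 2.

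Macrophages are phagocytes that settle in every organ before birth or are renewed from blood monocytes. Most of them need the receptor CSF1R, bound by the growth factors CSF1 and IL34, to survive, and they are the main source of C1q, the recognition part of the classical complement pathway. The liver holds a large resident population, the Kupffer cells, which line its sinusoids, take up bacteria, old red cells and lipoproteins from portal blood and carry the lectin CLEC4F. Timd4 and Marco, receptors for dying cells and for bacteria, mark long-lived resident macrophages of several organs and of lymph nodes.

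Set 2 libraries had 65161064 to 118976013 estimated counts each, and counts of single resident markers were still as low as 0 to 19 in some pancreases. The biological coefficient of variation was 0.57 in liver and 0.468 in pancreas. The depth of set 1 is unknown, since it was deposited as TPM alone. The scaling factors of the control pancreases (TMM, which sets the bulk of genes equal) were 0.210 and 0.443 against 1.30 to 1.79 in A3B pancreases. Raw TPM placed every A3B pancreas above every control for 70.8% of the 19123 genes tested, and fold changes in pancreas are given on the TMM scale. A3B liver 48 stood far below the other livers of set 2 in all 10 genes. The 2 control pancreases differed widely from each other. Y-chromosome genes were present in control pancreas 168 (13.7 TPM) and not in 45 (0.244 TPM). Among A3B pancreases they were present in 125, 137 and 153 and not in 44, 49 and 53. Leaving out either control thus also leaves a control group of a single kind in this respect. The labelled tissues carried their defining genes, with summed TPM of 6 hepatocyte genes of at least 32510 in set 2 livers and of 7 acinar genes of at least 59230 in pancreases.

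The 3 genes of the C1q chains lie side by side on chromosome 4 (GRCm38, GENCODE M21, minus strand): C1qb at 136880129-136886187, C1qc at 136889804-136893065 and C1qa at 136895917-136898803. Cd68 lies on chromosome 11 at 69664213-69666153, Marco on chromosome 1 at 120474538-120505024 and Clec4f on chromosome 6 at 83644542-83656187, all on the minus strand. RefSeq promoter sequence (GRCm38.p6) was found for 7 of the 10 genes. The 250 bases before the RefSeq start site of 5 of them are shown (for C1qc, Clec4f and Lyz2 that start lies inside the GENCODE gene, so the window overlaps it), as C1qb, C1qc and Cd68 carry the pancreas result and Marco and Clec4f did not share it. Capitals mark GAGGAA on either strand (TTCCTC where it lies on the opposite strand), the core that the myeloid factor PU.1 is known to prefer.
C1qb chr4:136886201-136886450 minus strand: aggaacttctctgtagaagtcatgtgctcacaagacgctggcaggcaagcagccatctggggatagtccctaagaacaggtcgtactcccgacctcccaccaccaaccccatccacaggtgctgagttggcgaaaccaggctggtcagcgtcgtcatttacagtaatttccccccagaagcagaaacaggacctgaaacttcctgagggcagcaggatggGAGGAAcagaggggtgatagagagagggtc
C1qc chr4:136892915-136893164 minus strand: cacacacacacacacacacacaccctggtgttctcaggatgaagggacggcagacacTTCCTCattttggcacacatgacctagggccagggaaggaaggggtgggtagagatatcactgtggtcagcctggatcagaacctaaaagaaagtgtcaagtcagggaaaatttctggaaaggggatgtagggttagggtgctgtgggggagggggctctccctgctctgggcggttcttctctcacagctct
Cd68 chr11:69666171-69666420 minus strand: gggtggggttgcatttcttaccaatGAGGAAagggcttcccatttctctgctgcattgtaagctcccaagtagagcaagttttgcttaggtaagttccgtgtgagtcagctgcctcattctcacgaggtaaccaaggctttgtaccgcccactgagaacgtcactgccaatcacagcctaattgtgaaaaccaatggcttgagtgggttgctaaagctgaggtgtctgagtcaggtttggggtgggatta
Marco chr1:120505025-120505274 minus strand: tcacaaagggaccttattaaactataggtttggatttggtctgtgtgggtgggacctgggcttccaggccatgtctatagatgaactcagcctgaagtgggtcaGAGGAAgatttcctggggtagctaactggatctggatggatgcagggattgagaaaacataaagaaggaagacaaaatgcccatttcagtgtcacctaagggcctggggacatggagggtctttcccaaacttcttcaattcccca
Clec4f chr6:83656117-83656366 minus strand: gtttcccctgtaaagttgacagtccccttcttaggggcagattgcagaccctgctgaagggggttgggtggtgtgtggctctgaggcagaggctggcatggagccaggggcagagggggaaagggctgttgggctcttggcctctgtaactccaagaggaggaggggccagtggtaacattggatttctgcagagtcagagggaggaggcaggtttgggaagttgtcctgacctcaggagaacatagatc
GAGGAA occurred once in the windows of C1qb, C1qc, Cd68 and Marco and was not among the letters of those of Clec4f, Lyz2 (chromosome 10, 117277331-117282321, minus strand) and Timd4 (chromosome 11, 46810800-46844332, plus strand). That is 4 of 7 windows, beside 23.3% of 32851 promoters of the same length. A match says only that these letters are there.

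The first comparison asked how macrophage genes differed between A3B and control pancreases. Of the 7 general markers 6 were higher in A3B pancreases, by 6.08-fold to 16.2-fold with both controls, while Lyz2 (1.96-fold) and the 3 resident markers were not shown to differ. C1qa, the A chain of C1q, had a lowest, median and highest value of 427, 759 and 1241 TPM in the 6 A3B pancreases, against 7.97 TPM in control 45 and 24.7 TPM in control 168. C1qb, the B chain, was at 334, 687 and 901 TPM against 3.51 and 22.2 TPM. C1qc, the C chain, was at 293, 482 and 751 TPM against 3.01 and 16.7 TPM. For each chain A3B pancreas 53 was highest and A3B pancreas 153 lowest, and no A3B sample came near a control. On the TMM scale the log2 fold changes were 3.48 ± 0.457 (SE) for C1qa, 3.71 ± 0.535 for C1qb and 3.66 ± 0.514 for C1qc, with adjusted p of 0.000522, 0.000841 and 0.000737 (edgeR, quasi-likelihood test, Benjamini-Hochberg over all genes tested).

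Cd68, a lysosomal membrane protein of phagocytes, showed the largest fitted rise of the 10 genes. It was at 95.7, 154 and 236 TPM (lowest, median and highest) in A3B pancreases and at 1.11 and 3.89 TPM in controls 45 and 168. Its log2 fold change was 4.02 ± 0.419 (edgeR, adjusted p = 0.000209). Adgre1, an adhesion receptor carried by mature macrophages, was at 16.6, 31.7 and 42.8 TPM in A3B pancreases and at 0.240 and 1.39 TPM in controls, a log2 fold change of 3.13 ± 0.453 (edgeR, adjusted p = 0.000901). Csf1r, the receptor for CSF1 and IL34, was at 45.7, 81.9 and 107 TPM in A3B pancreases and at 1.06 and 5.12 TPM in controls, a log2 fold change of 2.60 ± 0.388 (edgeR, adjusted p = 0.000988). All 3 genes were lowest in control 45. Csf1r overlaps Hmgxb3 and Mir6983 in the annotation, and whether reads were counted by strand is not given in the sources used here. In control 45, 410 Csf1r counts fell on a transcript that was minor in A3B pancreases and 0.315 on the one that was major there. In control 168 these counts were 717 and 848, and in A3B pancreases 884 to 1869 and 11261 to 29066. The part of this difference in the Csf1r fold change was not tested.

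Lyz2, the myeloid lysozyme, was the exception among the general markers. It was at 952, 1697 and 3056 TPM in A3B pancreases, above both controls, but the controls themselves stood at 34.3 TPM (45) and 495 TPM (168). The log2 fold change of 0.97 ± 0.626 did not pass the test (edgeR, adjusted p = 0.257). Without control 168 it was 2.85 and passed, and without control 45 it was 0.20 and did not. Lyz2 has a close paralogue, Lyz1, at 2.82 to 21.5 TPM in these pancreases, with which reads can be shared.

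In all, 6 of the 10 members passed the test in pancreas, all of them higher and all of them general markers, beside 17.0% of the 19123 genes tested that were higher and 31.9% that passed in either direction. All 7 general markers had every A3B pancreas above both controls in TPM, beside the 70.8% of all genes given above. The median log2 fold change was 3.48 over the 7 general markers and -0.31 over the 3 resident markers, against 0.09 over all genes tested. The same 6 genes passed without each of the 8 pancreases in turn, but their size rests on the controls. Without control 168 the log2 fold change was 4.63 for C1qb, 4.44 for C1qc and 3.87 for Adgre1, and without control 45 it was 3.18, 3.18 and 2.69. For C1qa, Cd68 and Csf1r it lay within 3.305 to 3.72, 3.73 to 4.44 and 2.30 to 3.04 over all 8. In addition, 6 members passed without A3B pancreases 44 and 137 together. When libraries were scaled by total counts alone, 13473 genes were higher and 210 lower in place of 3250 and 2843, the median of all genes moved to 2.29 and 7 members passed. In bulk tissue, more cells of a type cannot be told apart from more RNA of that type per cell.

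**Figure D1:**
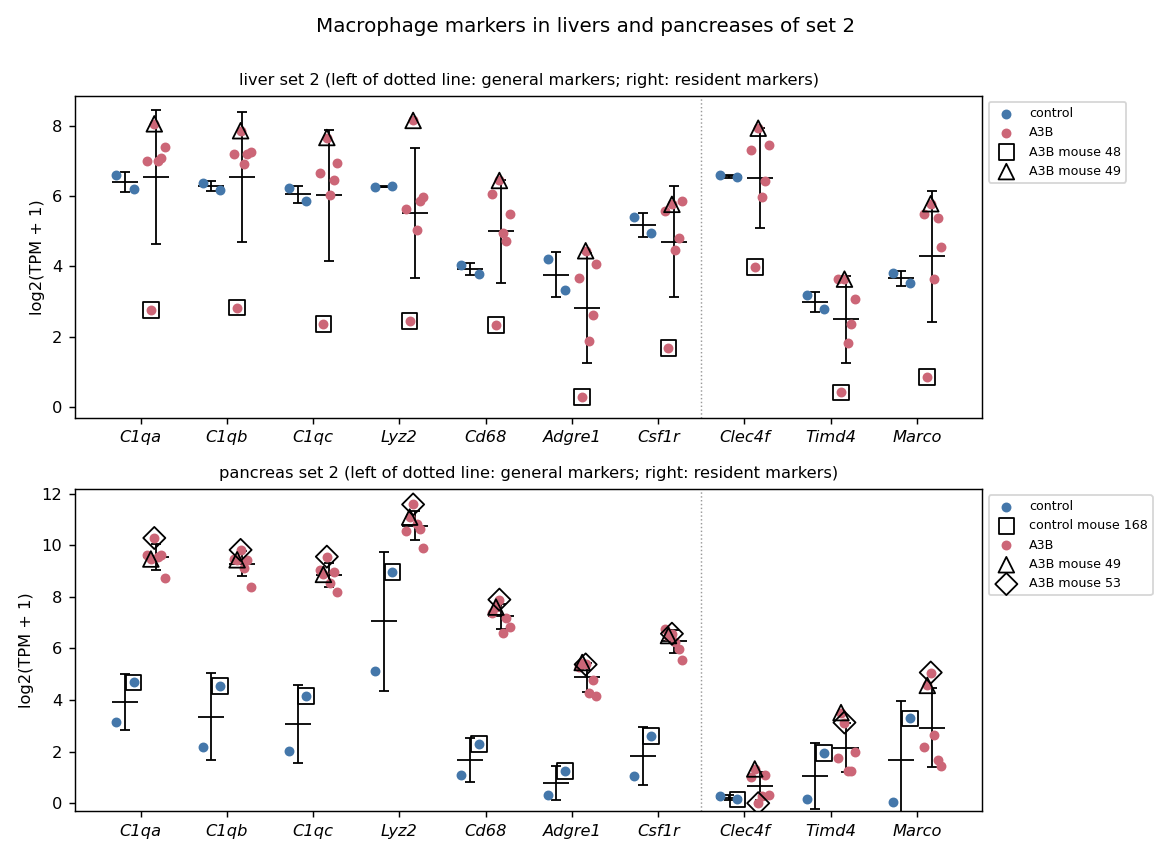
Level of each marker in set 2 as log2(TPM + 1), with livers in the upper panel and pancreases in the lower, 1 point per library, and bars for the mean ± SD of each group (n = 6 A3B and 2 controls). Squares, triangles and diamonds pick out named mice: A3B liver 48 is lowest for every gene, and the general markers of all 6 A3B pancreases lie above both controls while the resident markers overlap.

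None of the resident markers passed the test in pancreas. Clec4f, the Kupffer cell lectin, was near 0 throughout: it was at 1.04 TPM in A3B pancreas 44, 1.51 TPM in 49 and 1.13 TPM in 137, at 0.205 and 0.242 TPM in 125 and 153, listed at 0 in 53, and at 0.209 and 0.105 TPM in controls 45 and 168. These are 0 to 158 estimated counts in A3B pancreases and 19 and 5 in the controls. The 3 libraries with the highest Clec4f also had the most Alb, the hepatocyte albumin gene, at 634, 454 and 120 TPM in 44, 49 and 137 against 1.20 to 94.0 TPM in the other 5, and the part of liver RNA in these values was not tested. Its log2 fold change of 0.16 ± 1.54 did not pass the test (edgeR, adjusted p = 0.946), and it was -0.51 without A3B pancreases 44 and 137, those labelled with the transgene alone, 2.40 without control 45 and -0.73 without control 168.

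Timd4, a receptor for phosphatidylserine on dying cells, was at 10.4 TPM in A3B pancreas 49 and 7.73 TPM in 53 but at 1.38 to 2.91 TPM in the other 4. Control 45 had 0.105 TPM and control 168 had 2.86 TPM, so the groups overlapped. Marco, a scavenger receptor for bacteria and particles, was at 22.7 TPM in 49 and 32.5 TPM in 53, at 1.73 to 5.22 TPM in the other A3B pancreases, and at 0.0333 and 8.74 TPM in controls 45 and 168. The log2 fold changes of -0.31 ± 0.910 for Timd4 and -0.47 ± 1.46 for Marco did not pass the test (edgeR, adjusted p = 0.819 and 0.830).

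The 3 libraries with the most Marco, A3B pancreases 49 and 53 and control 168, also carried the most B cell genes. Over 8 B and plasma cell genes the summed level was 116 TPM in A3B pancreas 49, 84.6 TPM in 53 and 119 TPM in control 168, against 1.58 to 35.8 TPM in the other 5. Over 6 lymph node stroma genes, Ccl21a and Cr2 among them, it was 365, 88.3 and 91.9 TPM against 4.83 to 61.9 TPM. The part of lymph node RNA in the Timd4 and Marco levels was not tested. Without these 3 libraries, chosen after the data were seen, the log2 fold change was 3.76 for Marco, 2.62 for Lyz2 and 1.47 for Timd4. These values are a description, since the libraries left out are those with the most Marco and the 1 control that remains, 45, holds 5 counts of Marco and 18 of Timd4. The direction for Marco and Timd4 in pancreas therefore rests on which control is used: without control 168, and so against those 5 and 18 counts, it was 5.39 and 2.39, and without control 45 it was -1.43 and -1.17. Scaling by total counts also turned both positive, but it moved the median of all genes to 2.29, above both values.

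The counts for other macrophage genes in pancreas are to be read beside the 17.0% of all genes that were higher and the 31.9% that passed. Of 22 further general macrophage genes 20 were higher by edgeR and 0 lower, also at an unadjusted p under 0.05, with a median log2 fold change of 2.78. They include Fcgr1, the high-affinity IgG receptor (0.344 ± 0.343 TPM, SD, n = 2, in controls and 34.7 ± 15.1 TPM, SD, n = 6, in A3B), with a log2 fold change of 4.41 ± 0.522, and Ms4a7 (3.31 ± 0.440). Of 13 other genes of Kupffer and tissue-resident macrophages 6 were higher, among them Hmox1, the haem-degrading enzyme (2.84 ± 0.455), the haemoglobin scavenger receptor Cd163 (2.55 ± 0.525) and the folate receptor Folr2 (1.61 ± 0.385). Macrophages outside the liver are known to express these 3 as well.

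Of 12 genes of recruited monocytes 5 were higher and 1 lower. Chil3, a chitinase-like protein of myeloid cells, had a log2 fold change of 6.75 ± 1.39 and Itgam, the CD11b integrin, 2.65 ± 0.701, while Lyz1 fell by 2.17 ± 0.420 on the TMM scale, with 10.4 ± 4.95 TPM in A3B and 12.2 ± 13.2 TPM in control pancreases (SD). Of 10 genes of lipid-associated macrophages 5 were higher, led by the lipid receptor Trem2 (2.92 ± 0.448), the lysosomal protease Ctsb (2.67 ± 0.429) and osteopontin, Spp1 (2.56 ± 0.528). Spp1 stood at 1482 TPM in A3B and 49.7 TPM in control pancreases on average, and pancreatic cells other than macrophages also express both Ctsb and Spp1.

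Among 10 partners of CSF1R and C1q, the receptor itself included, 4 were higher. The complement protease C1ra (1.82 ± 0.369) and Cd93 (1.73 ± 0.297), an endothelial and myeloid receptor once described as binding C1q, were among them. The ligands Csf1 (0.74 ± 0.346) and Il34 (0.59 ± 0.411), named for their role, did not pass the test (edgeR, adjusted p = 0.127 and 0.292). Of 9 T cell genes, 8 B and plasma cell genes and 8 dendritic cell genes, 0 passed by edgeR in either direction, and 1 dendritic cell gene had an unadjusted p under 0.05. Of 9 neutrophil genes 2 were higher and 1 lower, a share near that of all genes. Of 7 acinar genes 6 were lower, among them the lipase Pnlip (-7.83 ± 0.901), the amylase Amy2a5 (-7.20 ± 0.786) and Cpb1 (-3.70 ± 0.434), and these list counts were taken on the TMM scale alone.

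Ratios of 2 genes in the same library do not depend on how libraries are scaled. Csf1r is summed over its transcripts in them, and in the control pancreases much of it lies on the minor transcript described above. Per Csf1r, C1qa was at 7.23 to 13.2 in A3B pancreases and at 4.81 and 7.50 in controls, and Cd68 was at 1.28 to 2.52 against 0.760 and 1.05. Lyz2 per Csf1r was lower in A3B pancreases, at 14.0 to 32.6 (median 24.4), and at 32.3 and 96.6 in controls, with ranges that overlap at one end. Timd4 per Csf1r was at 0.0188 to 0.116 in A3B and at 0.0988 and 0.558 in controls. The mean difference (A3B minus control) of the resident markers less that of the general markers was -4.07 on the log2(TPM + 1) scale, with an SD over A3B pancreases of 0.563, and -2.79 on the TMM scale. This score includes Clec4f, which is near 0 here, and was not tested.

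**Figure D2:**
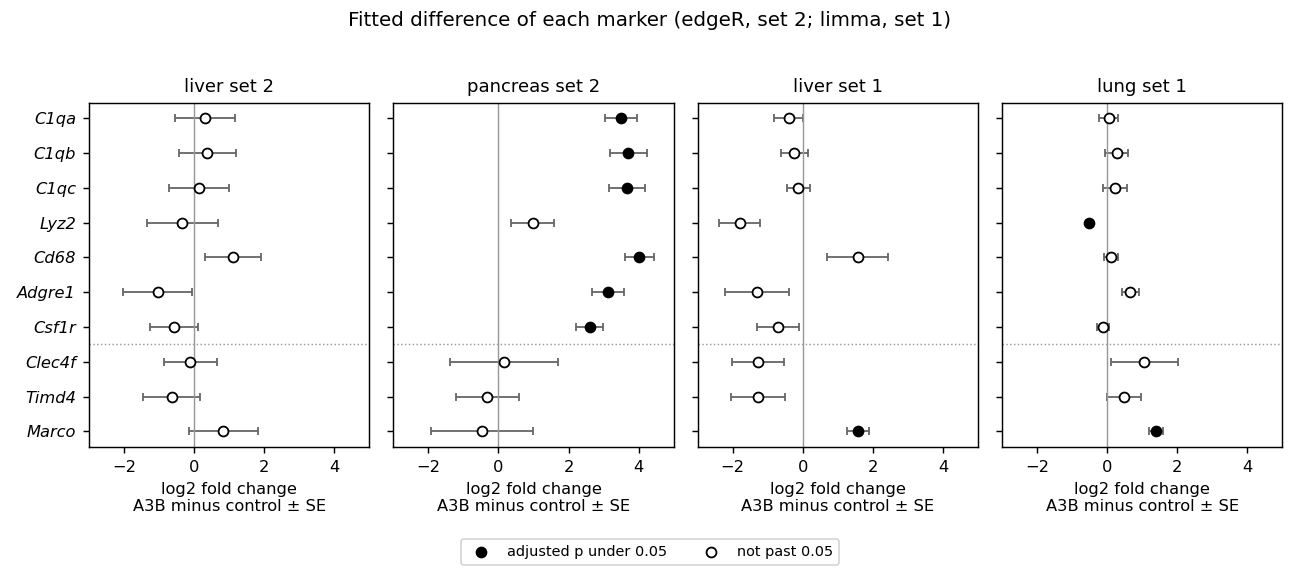
Fitted log2 fold change of each marker (A3B minus control, bars are ± SE) in the 4 comparisons, with filled points for an adjusted p under 0.05. Filled points are 6 general markers in pancreas, Marco in liver of set 1, and Marco (higher) and Lyz2 (lower) in lung.

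Livers of set 2 came from the same control mice and from 5 of the same A3B mice, and no member passed the test there. C1qa was at 5.77, 131 and 265 TPM (lowest, median and highest of 6) in A3B livers and at 96.0 and 72.9 TPM in controls 45 and 168. C1qb was at 6.11, 145 and 231 TPM against 82.3 and 71.2 TPM, and C1qc at 4.16, 93.7 and 202 TPM against 73.7 and 57.7 TPM. For C1qa and C1qb, 5 of 6 A3B livers were above both controls and A3B liver 48 was far below them. The log2 fold changes were 0.31 ± 0.846, 0.38 ± 0.812 and 0.14 ± 0.852 (edgeR, adjusted p = 0.860, 0.818 and 0.942).

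Lyz2 was at 4.45, 53.1 and 283 TPM in A3B livers and at 75.2 and 77.0 TPM in controls, with only A3B liver 49 above them. Cd68 was at 4.05, 36.9 and 86.0 TPM against 15.4 and 12.9 TPM, with 5 of 6 A3B livers above both controls and the largest fitted difference in this liver, 1.11 ± 0.804 (edgeR, adjusted p = 0.435). Adgre1 was at 0.219, 8.39 and 20.8 TPM against 17.6 and 9.01 TPM, and Csf1r at 2.23, 37.0 and 57.6 TPM against 41.8 and 29.7 TPM. Their fitted differences were negative, at -1.04 ± 0.985 and -0.58 ± 0.684, and did not pass (edgeR, adjusted p = 0.562 and 0.649).

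The resident markers were plainly present in these livers and likewise overlapped. Clec4f was at 14.9, 122 and 243 TPM in A3B livers and at 95.6 and 91.6 TPM in controls 45 and 168. Timd4 was at 0.341, 5.79 and 11.5 TPM against 8.08 and 5.95 TPM, and Marco at 0.813, 31.4 and 54.1 TPM against 12.9 and 10.5 TPM. Marco was above both controls in 4 of 6 A3B livers. The log2 fold changes were -0.11 ± 0.756, -0.64 ± 0.811 and 0.83 ± 0.991 (edgeR, adjusted p = 0.947, 0.672 and 0.652).

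Thus 0 of the 10 members passed in liver of set 2, beside 3.66% of 17365 genes, and 0 had an unadjusted p under 0.05, beside 22.9% of all genes. DESeq2 and limma on log2(TPM + 1) also called 0 members at either threshold. No member had every A3B liver on the same side of both controls, beside 29.7% of all genes. Scaling by total counts gave 879 genes higher and 241 lower in place of 218 and 418, DESeq2 gave 1290 and 1061, and total counts moved the median of all genes from 0.21 to 0.68.

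A3B livers 48 and 49 marked the ends of the range. A3B liver 48 was lowest for all 10 genes, and with it the Kupffer cell genes Cd5l (3.13 TPM against 43.8 to 269 TPM in the other livers) and Vsig4 (2.22 TPM against 21.5 to 99.9 TPM). Its Alb of 23630 TPM lay within the range of the other A3B livers, 19350 to 44120 TPM. The summed level of 6 sinusoidal endothelium genes was low in it too, at 27.9 TPM against 98.9 to 190.4 TPM in the other 7 livers. A3B liver 49 was highest for C1qa, C1qb, C1qc, Lyz2, Cd68, Adgre1, Clec4f and Marco and carried the most Gpnmb (23.7 TPM, next 2.14 TPM) and Trem2 (15.9 TPM, next 1.85 TPM), genes of lipid-laden macrophages. It also had the highest sum of 9 neutrophil genes, 128 TPM against 3.98 to 53.1 TPM in the other 7, and the lowest sum of hepatocyte genes, 32510 TPM against 46620 TPM or more. The part of these other cell types in the levels of A3B livers 48 and 49 was not tested. Without A3B liver 48 the log2 fold changes were 0.49 for C1qa, 0.55 for C1qb, 0.31 for C1qc, -0.16 for Lyz2, -0.86 for Adgre1, -0.42 for Csf1r, -0.48 for Timd4, 1.27 for Cd68, 1.01 for Marco and 0.05 for Clec4f, and still 0 members passed.

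Clec4f ran with other Kupffer cell genes across the 8 livers of set 2. The 5 genes of 12312 whose log2(TPM + 1) followed it most closely were Cd5l (Pearson r = 0.990), Vsig4 (0.990), Fpr1 (0.984), Atp13a2 (0.978) and Lyn (0.977). Among the members r with Clec4f was 0.966 for Csf1r, 0.963 for C1qc and 0.956 for Timd4. All points share A3B liver 48, which is low for each of these genes. Over the 8 pancreases, the 5 genes most like the mean of the C1q chains were Lgmn, Tpd52, Atp6v1b2, Capzb and Tgfbr2, each with r of 0.999, but raw TPM separates the groups for most genes there and Lyz2, with r of 0.938, ranked 6354 of 13590.

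The other macrophage genes of set 2 livers also gave few calls. Their counts are to be read beside the 3.66% of all genes that passed and the 22.9% with an unadjusted p under 0.05. Of the 22 further general macrophage genes, 13 Kupffer and tissue-resident genes and 11 monocyte genes tested, 0 passed by edgeR in either direction and 1 in each list had an unadjusted p under 0.05. Their median log2 fold changes were 0.46, -0.02 and 1.13. At an unadjusted p under 0.05 by edgeR, 3 of 10 lipid-associated genes were higher and 2 lower. Of 8 tested partners of CSF1R and C1q 0 passed, and 3 were lower at that unadjusted p. In the lipid-associated list 1 of 10 passed, Fabp5, a fatty acid binding protein of several cell types, which was at 7.65 ± 10.1 TPM in A3B and 121 ± 59.9 TPM in control livers (SD) and fell by 4.26 ± 0.875 (edgeR, adjusted p = 0.0350).

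Whether the response differed between pancreas and liver was tested in a fit over all 16 samples. The same 6 general markers were higher in pancreas relative to liver, beside 6.87% of 19908 genes that were higher and 11.9% that passed in either direction. The difference in log2 fold change was 3.34 ± 1.04 for C1qa, 3.49 ± 1.04 for C1qb, 3.69 ± 1.09 for C1qc, 3.09 ± 0.936 for Cd68, 4.34 ± 1.31 for Adgre1 and 3.36 ± 0.893 for Csf1r, with edgeR adjusted p between 0.0252 and 0.0476. For Lyz2 it was 1.47 ± 1.32, and for Clec4f, Timd4 and Marco 0.57 ± 1.76, 0.50 ± 1.35 and -1.14 ± 1.85 (edgeR, adjusted p from 0.488 to 0.875). With the mouse as a block 6 members passed. Scaling by total counts gave 7845 genes higher and 223 lower in place of 1367 and 1001, and 6 members passed, but without the filter on low values 1 passed. These calls sit close to the threshold: 0 members passed without control mouse 45 or control mouse 168, 1 without A3B livers 44 or 137 or A3B pancreases 44, 53 or 137 (Csf1r each time), 2 without A3B liver 125 or A3B pancreas 49, 4 without A3B liver 153, 5 without A3B pancreases 125 or 153, and 6 without A3B livers 48 or 49. Over all genes the number of calls ran from 83 without control mouse 45 to 3405 without A3B liver 49. The differences were positive for all 6 in each of these fits, at 2.78 or more. Of the 22 further general macrophage genes 7 were higher in pancreas relative to liver, among them the inhibitory IgG receptor Fcgr2b (3.72 ± 0.651), which is also on the sinusoidal endothelium list, and the lysosomal protease Lgmn (3.99 ± 1.07), and 0 were lower.

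In livers of set 1 the A3B samples fell into a 10-day library and a pair of 14-day libraries, so days on doxycycline cannot be told apart from other differences between these mice. Clec4f was at 33.9 and 31.7 TPM in A3B livers 23 and 28 (14 days), at 239 TPM in A3B liver 70 (10 days) and at 135, 174 and 162 TPM in controls 11, 91 and 92. Timd4 was at 0.398, 0.263 and 9.35 TPM in A3B livers 23, 28 and 70 and at 5.91, 5.78 and 4.64 TPM in the controls. The 14-day livers were below and the 10-day liver above every control for both genes. Their log2 fold changes of -1.27 ± 0.741 and -1.29 ± 0.768, on the log2(TPM + 1) scale as for all of set 1, did not pass (limma, adjusted p = 0.268 and 0.278).

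Csf1r was at 7.50, 10.1 and 41.5 TPM in A3B livers 23, 28 and 70 against 30.4, 23.1 and 22.1 TPM in controls 11, 91 and 92. Adgre1 was at 1.84, 1.86 and 28.9 TPM against 25.2, 11.4 and 10.0 TPM. Both again had the 14-day livers below and the 10-day liver above all controls. The C1q chains showed smaller gaps, with C1qa at 151, 183 and 328 TPM against 190.0, 335 and 333 TPM, C1qb at 69.9, 93.2 and 164 TPM against 94.0, 141 and 135 TPM, and C1qc at 134, 187 and 261 TPM against 179, 217 and 222 TPM.

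Lyz2 was below every control in all 3 A3B livers, at 6.23, 17.8 and 35.3 TPM in 23, 28 and 70 against 44.7, 84.6 and 52.5 TPM. Its log2 fold change of -1.80 ± 0.592 had an unadjusted p of 0.0173 and did not pass after adjustment (limma, adjusted p = 0.0901). Cd68 was above every control in all 3, at 45.2, 527 and 51.2 TPM against 34.0, 36.6 and 36.1 TPM. The value of A3B liver 28 stood alone and the difference of 1.57 ± 0.876 did not pass (limma, adjusted p = 0.251). It was 0.42 without A3B liver 28 and 2.18 without A3B liver 23. Per Csf1r, Cd68 reached 52.3 in that library against 1.12 to 1.64 in controls, while its C1qa was at 183 TPM.

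Marco was the 1 member that passed in this liver. It was at 5.59, 7.10 and 3.31 TPM in A3B livers 23, 28 and 70 and at 0.900, 0.963 and 1.32 TPM in controls 11, 91 and 92, with no overlap. The log2 fold change was 1.58 ± 0.324 (limma, adjusted p = 0.0385). It lost the call without control 91, control 92 or A3B liver 23, without the filter on low values and after centring each library on its median gene (1.12). Over all settings its adjusted p ran from 0.0232 to 0.184, and it was positive in each. The 1 of 10 stands beside 7.93% of 11507 genes that passed in either direction and 6.07% that were higher. Over all genes that number of calls, 913, itself ran from 1 without control 91 through 9 without control 92 and 55 without A3B liver 23 to 1562 without control 11. The 3 members whose groups did not overlap, Marco, Cd68 and Lyz2, stand beside 38.9% of all genes. Centring gave 271 genes higher and 458 lower in place of 699 and 214, the median of all genes being 0.39 before it.

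Without A3B liver 70, 6 members passed (limma): Marco, higher at 1.83, and Lyz2, Adgre1, Csf1r, Clec4f and Timd4, lower at -2.35, -2.43, -1.42, -2.22 and -2.27. That fit sets 2 livers taken at 14 days against 3 controls and leaves the C1q chains at -0.37 to -0.73 without a call, and in it 4.47% of 11436 genes were lower and 11.6% passed in either direction. A3B liver 70 also held the most Cd3e, a T cell receptor subunit, at 75.7 TPM against 0.134 to 4.95 TPM in the other livers of set 1. Its Kupffer cell genes Cd5l (105 TPM) and Vsig4 (77.6 TPM) were the highest of the 6 libraries, while A3B livers 23 and 28 had 3.34 and 15.2 TPM of Cd5l and 7.16 and 18.6 TPM of Vsig4 against 35.9 to 91.7 TPM over both genes in controls.

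Few other macrophage genes passed in set 1 livers, and their counts are to be read beside the 6.07% of all genes that were higher and the 7.93% that passed. Of 12 tested Kupffer and tissue-resident genes, Lyve1, a hyaluronan receptor that sinusoidal endothelium also carries, was higher (3.27 ± 0.527, limma, adjusted p = 0.0231) and Kcna2, a potassium channel, lower (-2.71 ± 0.540, adjusted p = 0.0366). Of 10 partners of CSF1R and C1q, Cd93 was higher (1.83 ± 0.345) and C1s2, a C1s protease gene, lower (-2.84 ± 0.615). Of 18 general macrophage genes tested 0 passed by limma, and 2 had an unadjusted p under 0.05, both higher. The summed level of 6 sinusoidal endothelium genes was below every control in all 3 A3B livers, at 119 and 125 TPM in A3B livers 23 and 28, 348 TPM in A3B liver 70 and 363 to 454 TPM in controls. The sum of 9 neutrophil genes was 51.0 and 143 TPM in 23 and 28, 14.3 TPM in 70 and 10.9 to 23.9 TPM in controls. The part of these cells in the low levels of Clec4f, Timd4, Adgre1 and Csf1r in livers 23 and 28 was not tested.

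**Figure D3:**
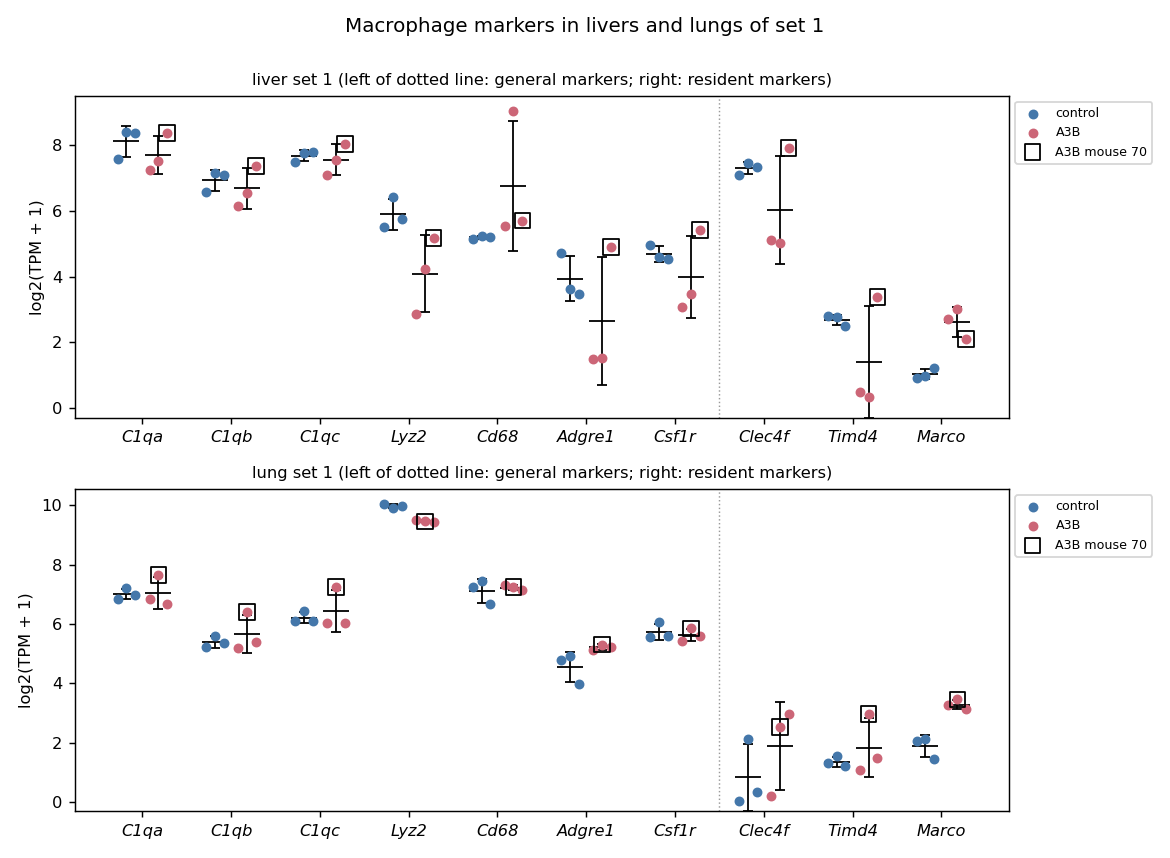
Level of each marker in set 1 as log2(TPM + 1), with livers in the upper panel and lungs in the lower, 1 point per library, and bars for the mean ± SD of each group (n = 3). Squares mark mouse 70: its liver lies above the other A3B livers for Clec4f, Timd4, Adgre1 and Csf1r, and Marco is higher in A3B than in control samples of both tissues.

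The lungs, which carried less of the transgene than the livers, were compared in the same way, and 2 members passed the test there in opposite directions. Marco, which marks alveolar macrophages among others, was at 8.53, 9.97 and 7.79 TPM in A3B lungs 69, 70 and 74 and at 3.21, 3.39 and 1.72 TPM in controls 87, 88 and 91. The lowest A3B lung was above the highest control, and the log2 fold change was 1.40 ± 0.203 (limma, adjusted p = 0.00535). Lyz2 was at 720.2, 700.4 and 692 TPM in A3B lungs and at 1048, 954 and 1013 TPM in controls, a log2 fold change of -0.51 ± 0.0863 (limma, adjusted p = 0.00729). In lung the paralogue Lyz1 stood as high, at 732 to 1481 TPM in A3B and 1673 to 2057 TPM in controls, so reads shared between both genes cannot be told apart. Of 6 lung epithelium genes 2 were lower in the same lungs, Cldn18, a claudin of alveolar epithelium (-1.11 ± 0.163, limma, adjusted p = 0.00549), and Sftpc, surfactant protein C (-0.33 ± 0.0854, adjusted p = 0.0236). Alveolar epithelium is known to express lysozyme as well, and its part in the Lyz2 difference was not tested.

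Adgre1 was at 33.9, 38.6 and 36.6 TPM in A3B lungs against 26.5, 29.5 and 14.9 TPM in controls, above them in every sample, and 0.65 ± 0.242 did not pass (limma, adjusted p = 0.0737). It passed without control lung 88, at 0.84. Cd68 was at 158, 150.1 and 140 TPM against 151, 174 and 101 TPM, and Csf1r at 42.2, 56.7 and 47.3 TPM against 46.7, 65.4 and 47.4 TPM, with mixed groups. Their log2 fold changes were 0.11 ± 0.198 and -0.12 ± 0.170 (limma, adjusted p = 0.698 and 0.620).

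A3B lung 70 was highest for the C1q chains and for Timd4. C1qa was at 113 TPM in A3B lung 69, 201 TPM in 70 and lowest of all 6 lungs in 74, against 114, 146 and 125 TPM in controls 87, 88 and 91, C1qb at 35.8, 83.6 and 40.7 TPM against 36.4, 47.8 and 39.8 TPM, and C1qc at 64.2, 151 and 64.7 TPM against 68.3, 85.1 and 67.1 TPM. Timd4 was at 1.10, 6.77 and 1.77 TPM against 1.46, 1.92 and 1.32 TPM. None of the 4 passed, and without A3B lung 70 all 4 fitted differences were negative, from -0.08 for Timd4 to -0.27 for C1qa. That library also had the most Fcna, a ficolin of macrophages, at 102 TPM against 9.79 to 24.9 TPM in the other 5, and a summed level of 157 TPM over lymph node stroma genes against 4.41 to 43.7 TPM. The part of lymph node RNA in its values was not tested.

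Clec4f exceeded 1 TPM in 3 of 6 lungs, at 4.81 TPM in A3B lung 70, 6.78 TPM in A3B lung 74 and 3.39 TPM in control lung 88, and at 0.0168 to 0.278 TPM in the other 3. The same 3 lungs had Alb at 190, 216 and 245 TPM against 0.331 to 23.6 TPM. The ratio of Clec4f to Alb was 1.18% to 5.08% in all 6 lungs, 7.94% to 9.47% in control livers and 2.69% to 13.6% in A3B livers of set 1. In livers of set 2 it was 0.089% and 0.168% in controls and 0.063% to 1.25% in A3B. The liver ratio thus differs between the sets, and the cause was not tested. In lung the log2 fold change of Clec4f, 1.06 ± 0.949, did not pass (limma, adjusted p = 0.419), and the part of liver RNA in it was not tested.

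**Figure D4:**
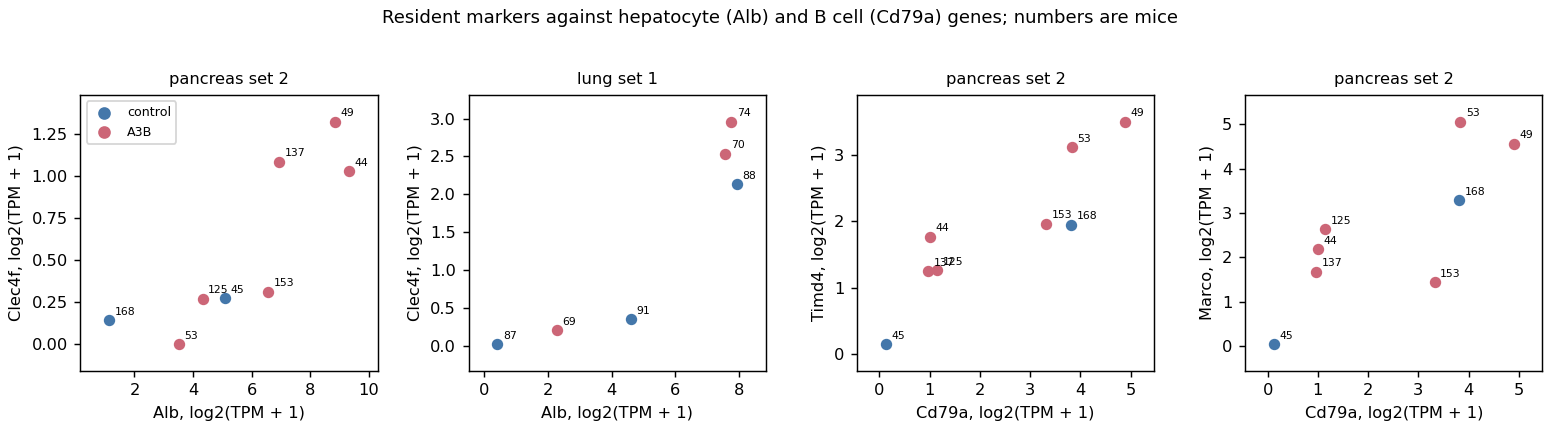
Each point is a library, labelled with its mouse, on log2(TPM + 1) axes: Clec4f against the hepatocyte gene Alb in pancreases of set 2 and lungs of set 1, and Timd4 and Marco against the B cell gene Cd79a in pancreases. Clec4f is above 1 TPM in pancreases 44, 49 and 137 and lungs 70, 74 and 88, which have the most Alb, and Timd4 is highest in pancreases 49 and 53.

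In lung, 1 member was higher and 1 lower of 10, beside 16.1% of 13651 genes higher, 20.8% lower and 36.8% in either direction, so the members passed no more often than genes at large. Groups did not overlap for 3 members, beside 53.9% of all genes. Lyz2 and Marco passed without each of the 6 lungs in turn and with every other setting tried. The 5 genes whose pattern was most like that of Marco over the 6 lungs were Nrip1, Gsk3b, Mgat5, Tada2b and Pip4k2c, with Pearson r from 0.996 to 0.998 on log2(TPM + 1), and the 6 points share their split into 2 groups.

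Genes of other macrophage states in lung are to be read beside the 16.1% of all genes that were higher and the 20.8% that were lower. Of 12 monocyte genes 10 were tested, 5 were lower and 0 higher, with 2 higher at an unadjusted p under 0.05. Those lower include Ccr2, the receptor that brings monocytes out of the bone marrow (42.2 ± 11.6 TPM in A3B and 166 ± 61.7 TPM in controls, SD, n = 3 each, log2 fold change -1.92 ± 0.338 by limma), S100a4 (-1.37 ± 0.260) and the fractalkine receptor Cx3cr1 (-1.87 ± 0.383). In the same lungs the sum of 8 dendritic cell genes was 69.3 to 127 TPM in A3B and 143 to 164 TPM in controls, that of 8 B and plasma cell genes 99.99 to 187 TPM and 146 to 522 TPM, and Fcer2a (-2.61 ± 0.697) and Cr2 (-1.12 ± 0.325) of the lymph node list passed as lower. Of 7 tested dendritic cell genes 1 passed, Zbtb46, which was higher (0.46 ± 0.0970). The part of these cell types in the monocyte gene counts was not tested. Of 12 tested Kupffer and tissue-resident genes 3 were higher, Lyve1 (2.13 ± 0.175), Siglec1, the sialoadhesin CD169 (1.29 ± 0.200), and Cd163 (1.03 ± 0.222), and 1 was lower. Of 20 tested general genes 4 were higher, among them Cd14 (0.99 ± 0.143), the cytokine receptor chain Csf2rb (0.68 ± 0.161) and the mannose receptor Mrc1 (0.82 ± 0.224). Of 9 alveolar macrophage genes Krt79 was higher (0.57 ± 0.173) and Car4 lower (-0.61 ± 0.105). Of 10 lipid-associated genes the lipoprotein lipase Lpl was higher (1.16 ± 0.212), and Fabp5 (-0.46 ± 0.0979) and the galectin Lgals3 (-0.36 ± 0.0944) were lower. Of 10 partners of CSF1R and C1q 1 was higher and 3 were lower. The ligand Csf1 was lower, at 15.8 ± 2.47 TPM against 31.9 ± 6.29 TPM (-0.96 ± 0.170), as was the chaperone calreticulin, Calr (-0.49 ± 0.136), and Cd93 was higher (0.86 ± 0.230).

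The difference between liver and lung of set 1 was tested over all 12 samples, and 0 of 10 members passed, beside 10.7% of 13477 genes. With limma 0 had an unadjusted p under 0.05, beside 29.9% of genes, and 0 passed with the mouse as a block. Marco had almost the same fitted change in both tissues, 1.58 and 1.40, a difference of 0.18 ± 0.362. The largest difference was -2.34 ± 1.26 for Clec4f (adjusted p = 0.235). Without A3B liver 70, 4 members passed as lower in liver: Lyz2 at -1.84, Adgre1 at -3.08, Csf1r at -1.30 and Timd4 at -2.75, beside 5.71% of 13526 genes lower and 22.7% in either direction in that fit.

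Between tissues the members ranked differently by level (TPM, within a set). In set 2 Clec4f averaged 123 ± 83.7 TPM in A3B livers and 93.6 ± 2.78 TPM in control livers, groups that do not differ beyond their spread, then 0.687 ± 0.616 and 0.157 ± 0.0736 TPM in A3B and control pancreases. Csf1r ran from 78.9 ± 22.5 TPM in A3B pancreases through 35.7 ± 8.56 TPM in control livers and 34.7 ± 21.5 TPM in A3B livers, neighbours within their spread, to 3.09 ± 2.87 TPM in control pancreases. Lyz2 ran from 1847 ± 716 TPM in A3B pancreases through 265 ± 326 TPM in control pancreases to 81.1 ± 101 and 76.1 ± 1.24 TPM in A3B and control livers, the last 3 within their spread. Clec4f per Csf1r was 2.91 to 6.70 in A3B livers and 2.29 and 3.09 in control livers, against at most 0.197 in any pancreas.

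In set 1 Clec4f averaged 157 ± 19.98 TPM in control livers and 102 ± 119 TPM in A3B livers, within their spread, and 3.91 ± 3.404 and 1.23 ± 1.87 TPM in A3B and control lungs. Lyz2 was at 1005 ± 47.9 TPM in control lungs, 704 ± 14.6 TPM in A3B lungs, 60.6 ± 21.2 TPM in control livers and 19.8 ± 14.6 TPM in A3B livers. Csf1r lay between 19.7 and 53.2 TPM on average in all 4 groups. The resident minus general score, the mean difference of the resident markers less that of the general ones on the log2(TPM + 1) scale, was 0.13 in liver of set 2 (SD over A3B samples 0.401), 0.10 in liver of set 1 (0.533) and 0.88 in lung (0.562), beside -4.07 in pancreas, and no test was made of a score over these genes.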

How the data were processed

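RNA was sequenced as stranded TruSeq libraries in 100-nt paired-end reads. For set 2 the authors deposited kallisto (v0.46.1) estimated counts and TPM per transcript, against mouse transcripts of GRCm38 per the labels. These were summed per gene with GENCODE M21, which named 97.7% of 119414 transcripts, and estimated counts were rounded to whole numbers. For set 1 the authors deposited TPM per gene, made from duplicate-marked alignments. In set 1, 4 rows with repeated names were left out. Levels are compared within a set only.

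Set 2 was fitted in edgeR 4.0.16 (filterByExpr, TMM, robust quasi-likelihood test) and set 1 in limma 3.58.1 (trend, robust) on log2(TPM + 1), with genes of mean TPM of at least 1, in R 4.3.3. The study's methods name DESeq2, which was run (1.42.0) as an alternative for set 2. P-values were adjusted by Benjamini-Hochberg over all genes tested, and passing means adjusted p under 0.05. The ± after a fitted value is its SE, and after a mean its SD. The fits were tested on simulated data, where of 200 genes changed 4-fold edgeR called 30.5% in livers and 27.5% in pancreases of set 2 at a dispersion of 0.25, and limma called 38% in livers and 95.5% in lungs of set 1. At a dispersion of 0.05 edgeR called 100% in both tissues. The biological coefficient of variation of 0.57 in livers stands for a dispersion above 0.25. The changed genes were drawn from those above a floor of expression, so recovery of genes with few counts was not tested.

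Libraries of set 2 held 65161064 to 118976013 estimated counts, of which 0.230% to 1.47% fell on transcripts with no gene name and stayed out. The depth of set 1 is unknown. Mouse numbers pair tissues of the same animals, by title. Deviations from group means correlated at -0.02 to 0.39 within A3B mice of set 2, and the mouse was used as a block in an alternative fit between tissues. Other alternatives were total-count scaling, DESeq2, no filter, limma on TPM and a Y-chromosome covariate (set 2), another pseudocount, no filter, no trend and median centring (set 1), and leaving out each library. Leaving out A3B pancreases 49 and 53 with control 168 was added after the data were seen.

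The markers, the other gene lists and the tests were chosen with earlier results of these data known, so no list is independent evidence of its direction. The genes named from each list were the 3 with the lowest adjusted p among those that passed, except for an item that is not reported here, and the ligands Csf1 and Il34 were named for their role. Libraries that stand apart and genes of other cell types beside a result were named after their values were seen. Promoters (250 bases) came from a RefSeq table of GRCm38.p6.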

Additional observations from a re-analysis of the deposited data

Results flagged for a closer look

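A3B liver 48 of set 2 stood apart from the other 5 A3B livers at the low end for 4 general markers. On the log2(TPM + 1) scale its gap to the next library took 0.801 of the whole range for C1qa, 0.811 for C1qb, 0.692 for C1qc and 0.667 for Csf1r, where Dixon's 95% critical value for 6 samples is 0.625. On linear TPM the same shares were 0.468, 0.503, 0.305 and 0.345, all under that value. Among 20 groups tested, chance gives about 1 in 20, and the 4 genes share 1 library. The log2 fold change between A3B and control samples differed between pancreas and liver of set 2 by the test of the difference itself, at 3.34 for C1qa, 3.49 for C1qb, 3.69 for C1qc, 3.09 for Cd68, 4.34 for Adgre1 and 3.36 for Csf1r. Without control mouse 45 or 168 none of these 6 passed.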

How the results depend on the processing

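The number of members that passed kept within 1.5 times its value under most settings. In liver of set 1 it fell from 1 to 0 without the low-value filter and with median centring. In pancreas relative to liver it fell from 6 to 1 without the filter. With total counts alone the log2 fold change turned for Lyz2 (0.25) and Clec4f (0.41) in liver of set 2, Timd4 (1.61) and Marco (1.41) in pancreas and Marco in pancreas relative to liver (0.053). With limma on TPM it turned for C1qc in liver of set 2 (-0.029) and for Timd4 (1.10) and Marco (1.26) in pancreas. In pancreas total counts and limma on TPM moved the median of all genes to 2.29 and 1.75. Timd4 and Marco stayed below that median in both settings. Clec4f in pancreas turned to -0.51 without A3B pancreases 44 and 137 and to -0.71 without 49, 53 and control 168, the latter also turning Timd4 (1.47) and Marco (3.76). Lyz2 in pancreas passed with total counts (2.86) and limma (3.71). With the mouse as a replicate block Marco in liver relative to lung turned to -0.12, and 6 and 0 members passed in the 2 differences between tissues, and no member's call changed. Over all genes in pancreas relative to liver the block gave 1130 higher and 486 lower in place of 1367 and 1001. The resident minus general score in pancreas was -3.51 with a pseudocount of 0.1 and -2.79 on the TMM scale. In all, 246 other values kept direction and call, 3 gained a call, 7 lost one or moved and 13 turned. The cause was not tested.

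Leaving out each library in turn, the members that passed ran from 0 to 6 in liver of set 1 and in pancreas relative to liver, 6 to 7 in pancreas, 2 to 3 in lung and 0 to 4 in liver relative to lung. In liver of set 2 log2 fold changes ran from -0.052 to 0.49 (C1qa), -0.29 to 0.31 (C1qc) and -0.44 to 0.051 (Clec4f), and in pancreas from -0.73 to 2.40 (Clec4f), -1.17 to 2.39 (Timd4) and -1.43 to 5.39 (Marco). In liver of set 1 they ran from -0.58 to 0.029 (C1qb) and -0.37 to 0.11 (C1qc). In lung they ran from -0.27 to 0.23 (C1qa), -0.10 to 0.50 (C1qb), -0.18 to 0.43 (C1qc), -0.12 to 0.27 (Cd68), -0.23 to 0.039 (Csf1r) and -0.083 to 0.86 (Timd4). In pancreas relative to liver they ran from -0.43 to 2.69 (Clec4f), -0.46 to 3.34 (Timd4) and -2.13 to 4.79 (Marco), and in liver relative to lung from -0.59 to 0.0495 (C1qc) and -0.023 to 0.43 (Marco). The score ran from 0.023 to 0.23 in liver of set 2, -4.27 to -3.92 in pancreas, -0.060 to 0.41 in liver of set 1 and 0.71 to 1.21 in lung.

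Over all genes, higher and lower calls in pancreas became 11401 and 152 with limma on TPM, in liver of set 1 they became 39 and 15 without the filter, in pancreas relative to liver 1829 and 1934 with DESeq2 and in liver relative to lung 2153 and 454 with the block in place of 1187 and 261. Groups of 2 controls and the unknown depth of set 1 limit these comparisons.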

Other observations

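Cldn18, a claudin gene that was lower in A3B lungs, was higher in A3B pancreases, and which cells express it there was not tested. In A3B pancreases Cldn18 was at 15.2 ± 6.25 TPM (SD, n = 6) against 0.0117 ± 0.0166 TPM (n = 2), a log2 fold change of 7.41 ± 1.01 (edgeR, adjusted p = 0.000997).

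Some values stood alone in 1 library. A3B liver 28 of set 1 had the highest Cd68, at 527 TPM, and with it 7.82 TPM of Gpnmb against 0.0612 to 1.72 TPM in the other 5. Cd5l in A3B pancreas 53 was at 14.1 TPM against 0.0313 to 5.20 TPM in the other 7, while Clec4f was listed at 0 there.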
